A study of Mus musculus with 8 samples.

Results

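The 7 genes described here encode parts of the sodium pump (Na+/K+-ATPase) that accompany its catalytic subunit: the beta subunits Atp1b1 and Atp1b2 and the FXYD regulators Fxyd1, Fxyd2, Fxyd5, Fxyd6 and Fxyd7. They were found by their gene names among the 34650 names on a whole-genome array and are read by 8 of its 55681 probes, 2 of them for Fxyd2. All 8 probes were bright enough to be tested, and no spot of them was saturated.

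The study compared RNA of the prefrontal cortex (PFC) of male α-Gal A(-/0) mice, a model of Fabry disease that lacks the lysosomal enzyme α-galactosidase A, with that of male wildtype mice. Both groups were of strain C57BL/6J per the labels (the study's methods give the background of the α-Gal A(-/0) mice as C57BL/6) and were 20 to 24 weeks old, with 4 mice per genotype, each measured on 1 one-color Agilent SurePrint G3 array. For the arrays the 2 genotypes came from separate inbred colonies, so genotype and colony cannot be told apart on them. All 8 arrays lay on 1 slide and were scanned in 1 run, with α-Gal A(-/0) replicate 1 and wildtype replicates 1 to 3 in one row of the slide and the other arrays in the other row.

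The sodium pump uses ATP to carry sodium out of the cell and potassium into it, and so sustains the resting potential of neurons and the ion gradients on which glutamate uptake by astrocytes depends. An alpha subunit does the transport, a beta subunit brings it to the cell surface, and a small single-span protein of the FXYD family can bind the complex and tune its affinity for ions. Fxyd2, the gamma subunit, is best known from the kidney, whereas Fxyd1, Fxyd6 and Fxyd7 are known from brain.

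Between 29943 and 38240 probes per array were well above background, the lowest number being that of α-Gal A(-/0) replicate 2. With 4 arrays in each group, their number sets the precision of what follows. The 10 neuronal markers, among them Snap25 and Slc17a7, were all bright enough to be tested. The single probe of Gla, the gene of α-galactosidase A, read 17.15 ± 0.029 (SD, n = 4) on the log2 scale on the arrays labelled α-Gal A(-/0) and 17.09 ± 0.072 (SD, n = 4) on those labelled wildtype, a log2 fold change of 0.061 (limma, adjusted p = 0.70). The sources used here do not say whether this probe lies in the disrupted part of Gla, and a probe outside it checks nothing, so the genotypes are those of the labels and every direction below rests on them.

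Fxyd2 was the one gene of the 7 that passed the test: its RNA was about 3.4-fold higher in α-Gal A(-/0) PFC. The other 4 FXYD regulators and both beta subunits differed by at most 1.2-fold in either direction and did not pass. The test was limma on quantile normalized log2 signals, and p values were adjusted by the method of Benjamini and Hochberg over the 34339 probes tested, with a threshold of 0.05. By it 1 of the 7 genes rose and 0 fell, where 0.377% of all tested genes rose and 0.753% fell, and 2 of the 8 probes rose where 0.306% of all tested probes rose and 0.577% fell. At an unadjusted p under 0.05, 3 of the 7 genes passed (Fxyd2, Fxyd5 and Fxyd6), where 12% of all tested probes and 15.4% of all tested genes did. All log2 fold changes below are α-Gal A(-/0) minus wildtype.

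**Figure D1:**
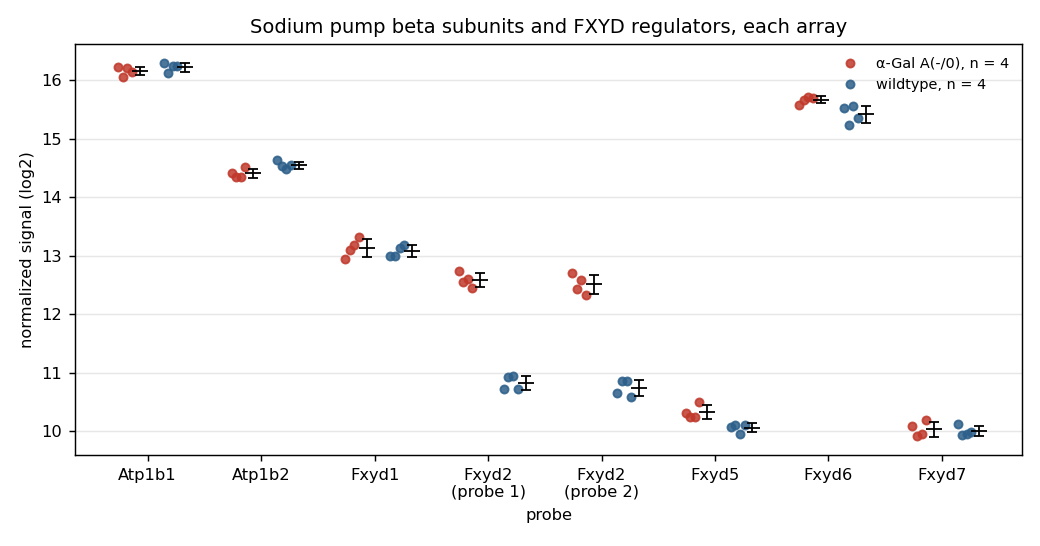
Normalized log2 signal (y axis) of each of the 8 probes (x axis) on every array, α-Gal A(-/0) in red and wildtype in blue (points, 4 arrays each), with the mean and SD as black bars. Both Fxyd2 probes lay above 12.3 on every α-Gal A(-/0) array and below 11.0 on every wildtype array, and the genotypes of the other genes lay close together.

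Both Fxyd2 probes lie on the plus strand of chromosome 9 on the mm9 build, at chr9:45218281-45218340 and chr9:45218302-45218361. Each has 60 bases, they are offset by 21 bases and 39 bases are common to both, so they are not independent measurements. The first 30 bases of the common run, at chr9:45218302-45218331, are shown because every Fxyd2 value below rests on RNA that carries them:

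Fxyd2: ctggttttcaatgaatccttgtataagcaa

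In the log2 signal of the first Fxyd2 probe, α-Gal A(-/0) replicates 1 to 4 had 12.74, 12.56, 12.61 and 12.45. Wildtype replicates 1 to 4 had 10.72, 10.92, 10.94 and 10.71. The genotypes did not overlap, and a gap of 1.51 separated the lowest α-Gal A(-/0) array from the highest wildtype array. Of all tested probes, 7.95% had genotypes that did not overlap, in 3.09% with all 4 α-Gal A(-/0) arrays on the higher side. The means were 12.59 ± 0.12 (SD, n = 4) and 10.83 ± 0.12 (SD, n = 4). The log2 fold change was 1.77 (standard error 0.086, 95% confidence interval 1.57 to 1.96, limma adjusted p = 4.7e-05), which is 3.40-fold.

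The second Fxyd2 probe had log2 signals of 12.70, 12.42, 12.59 and 12.34 in α-Gal A(-/0) replicates 1 to 4. It had 10.66, 10.85, 10.85 and 10.59 in wildtype replicates 1 to 4. The genotypes again did not overlap, with a gap of 1.48, and the arrays had the same order as in the first probe. The means were 12.51 ± 0.16 (SD, n = 4) and 10.74 ± 0.14 (SD, n = 4), a log2 fold change of 1.78 (standard error 0.10, 95% confidence interval 1.54 to 2.01, limma adjusted p = 0.00012). Among all 34339 tested probes the 2 Fxyd2 probes ranked 18 and 24 by p.

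The difference was already there before any normalization between arrays. The processed intensity of the first probe was 6108, 5554, 5878 and 5303 units in α-Gal A(-/0) replicates 1 to 4 and 2067, 1797, 2175 and 1781 units in wildtype replicates 1 to 4. Within each row of the slide the first probe had a log2 difference of 1.88 in the row with 1 α-Gal A(-/0) and 3 wildtype arrays, and of 1.83 in the row with 3 α-Gal A(-/0) arrays and 1 wildtype array. For the second probe these values were 1.91 and 1.86. In a bulk sample such as this one, more cells that hold an RNA and more of it per cell cannot be told apart.

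**Figure D2:**
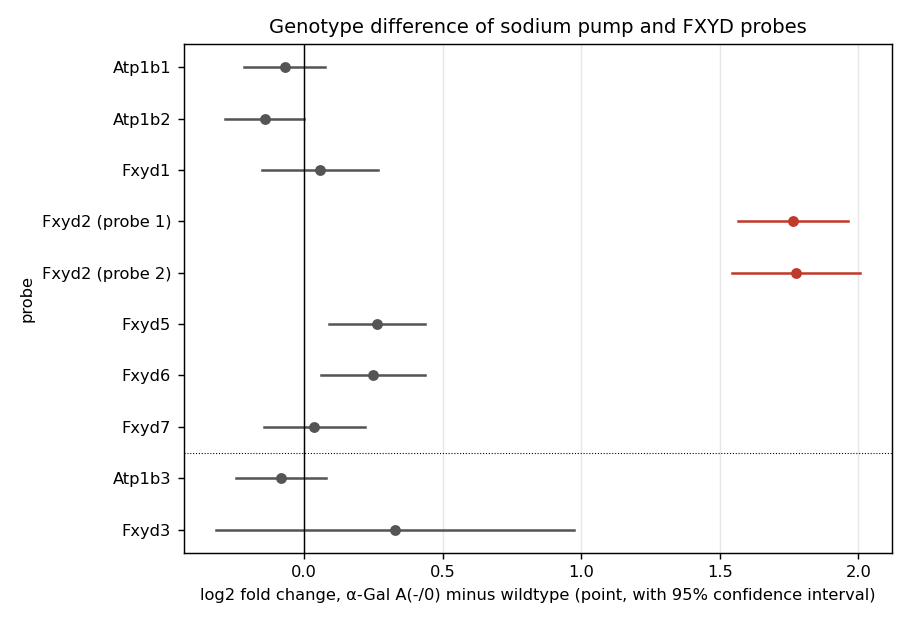
Log2 fold change (x axis, α-Gal A(-/0) minus wildtype, points with 95% confidence intervals) of the 8 probes of the 7 genes above the dotted line and of the 2 tested probes of Atp1b3 and Fxyd3 below it. The Fxyd2 probes, in red, passed the test, with intervals from 1.54 to 2.01 that lay apart from those of all other probes shown.

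The beta subunits, which the pump needs to leave the endoplasmic reticulum and which also act in cell adhesion, were slightly lower without passing the test. Atp1b1 encodes the widespread beta subunit of neurons, and its probe lies at chr1:166368263-166368322. Its log2 signals were 16.22, 16.06, 16.20 and 16.13 in α-Gal A(-/0) replicates 1 to 4 and 16.29, 16.11, 16.24 and 16.24 in wildtype replicates 1 to 4. The genotypes overlapped, and the log2 fold change was -0.069 (standard error 0.064, 95% confidence interval -0.22 to 0.077, limma adjusted p = 0.70).

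Atp1b2 encodes the beta subunit first described as an adhesion molecule on glia, and its probe lies at chr11:69413253-69413312. Its log2 signals were 14.42, 14.35, 14.34 and 14.51 in α-Gal A(-/0) replicates 1 to 4. They were 14.63, 14.54, 14.48 and 14.55 in wildtype replicates 1 to 4. Only α-Gal A(-/0) replicate 4 reached into the wildtype range. The log2 fold change was -0.14 (standard error 0.062, 95% confidence interval -0.28 to 0.0013, limma adjusted p = 0.42). With each array shifted to its 75th percentile instead of quantile normalized, the genotypes of Atp1b2 did not overlap, the log2 fold change was -0.18 and the adjusted p was 0.41.

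Fxyd5 and Fxyd6 were the 2 regulators after Fxyd2 in which all 4 α-Gal A(-/0) arrays lay above all 4 wildtype arrays, by much smaller steps. Fxyd5, or dysadherin, is an FXYD protein with a long extracellular part that is known for lowering cell adhesion, and its probe lies at chr7:31817824-31817883. Its log2 signals were 10.31, 10.25, 10.24 and 10.49 in α-Gal A(-/0) replicates 1 to 4 and 10.07, 10.11, 9.95 and 10.11 in wildtype replicates 1 to 4. The log2 fold change was 0.26 (standard error 0.075, 95% confidence interval 0.09 to 0.44), with a p of 0.0080 in limma that became 0.23 after adjustment over all probes.

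Fxyd6, or phosphohippolin, is a regulator known from neurons, and its probe lies at chr9:45204134-45204193 on the same strand as Fxyd2, 14.1 kb from the first Fxyd2 probe. Its log2 signals were 15.58, 15.67, 15.71 and 15.70 in α-Gal A(-/0) replicates 1 to 4. They were 15.52, 15.24, 15.55 and 15.35 in wildtype replicates 1 to 4. The gap between the genotypes was only 0.024. The log2 fold change was 0.25 (standard error 0.081, 95% confidence interval 0.06 to 0.44), with a p of 0.015 in limma and an adjusted p of 0.29. Before normalization between arrays the genotypes overlapped in both genes: Fxyd5 had 1119 to 1380 units in α-Gal A(-/0) and 1018 to 1300 units in wildtype arrays, and Fxyd6 had 44061 to 51488 units and 36098 to 55260 units.

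Fxyd1, phospholemman, is a target of protein kinases that relieves its inhibition of the pump when phosphorylated, and its probe lies at chr7:31836699-31836758. Its log2 signals were 12.95, 13.09, 13.18 and 13.32 in α-Gal A(-/0) replicates 1 to 4 and 12.99, 13.003, 13.13 and 13.19 in wildtype replicates 1 to 4. The α-Gal A(-/0) arrays spanned the whole wildtype range. The log2 fold change was 0.058 (standard error 0.091, 95% confidence interval -0.15 to 0.27, limma adjusted p = 0.84), and its sign turned without α-Gal A(-/0) replicate 4, to -0.0049.

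Fxyd7 is a regulator found mainly in brain, and its probe of 60 bases spans 156 bases of the genome at chr7:31829612-31829767. Its log2 signals were 10.09, 9.92, 9.95 and 10.19 in α-Gal A(-/0) replicates 1 to 4 and 10.12, 9.93, 9.96 and 9.98 in wildtype replicates 1 to 4. The genotypes overlapped, and the log2 fold change was 0.037 (standard error 0.079, 95% confidence interval -0.15 to 0.22, limma adjusted p = 0.89), which turned to -0.015 without α-Gal A(-/0) replicate 4. A difference of the size of Fxyd2's lies far outside the intervals of both genes.

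Fxyd2 was then set against each of the other 6 genes within every array, as the log2 signal of its first probe minus that of the other gene. Such a difference depends on how well each probe binds, so its level does not give the ratio of the RNAs, but its change between genotypes shows how unequally the pair of genes moved. In all 6 comparisons every α-Gal A(-/0) array lay above every wildtype array. Relative to the other FXYD regulators, Fxyd2 was 3.27-fold higher against Fxyd1, 2.83-fold against Fxyd5, 2.86-fold against Fxyd6 and 3.31-fold against Fxyd7. Relative to the beta subunits it was 3.57-fold higher against Atp1b1 and 3.75-fold higher against Atp1b2.

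Fxyd1 was the next brighter gene after Fxyd2, and the distance between both narrowed in α-Gal A(-/0) arrays. Fxyd2 minus Fxyd1 was -0.21, -0.53, -0.57 and -0.87 in α-Gal A(-/0) replicates 1 to 4 and -2.27, -2.08, -2.19 and -2.48 in wildtype replicates 1 to 4, a change of 1.71 on the log2 scale. The Fxyd2 probe was dimmer than the Fxyd1 probe on every array, also where Fxyd2 was high. Fxyd2 minus Fxyd6, its neighbour on the chromosome, was -2.84, -3.11, -3.10 and -3.25 in α-Gal A(-/0) replicates 1 to 4 and -4.79, -4.32, -4.61 and -4.64 in wildtype replicates 1 to 4, a change of 1.52.

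Fxyd2 minus Fxyd5 had the smallest gap between genotypes of the 6, at 0.97. It was 2.43, 2.31, 2.37 and 1.96 in α-Gal A(-/0) replicates 1 to 4 and 0.66, 0.82, 0.99 and 0.60 in wildtype replicates 1 to 4, a change of 1.502. The two-sided exact permutation test gave p = 0.029 in each of the 6 comparisons, also after Benjamini-Hochberg adjustment over the 6, which is the smallest p that the 70 relabelings of 4 against 4 arrays allow. All 6 share the values of Fxyd2 and are not independent. The genotypes were already known to be separated in the first Fxyd2 probe, by a gap of 1.51. Each of the other genes varied by less than that gap over all arrays. Every comparison therefore had to separate the genotypes and reach the smallest p, so this p adds nothing to the call of Fxyd2. By mean brightness the probes had the same order in both genotypes, from Atp1b1 through Fxyd6, Atp1b2, Fxyd1, Fxyd2 and Fxyd5 to Fxyd7.

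**Figure D3:**
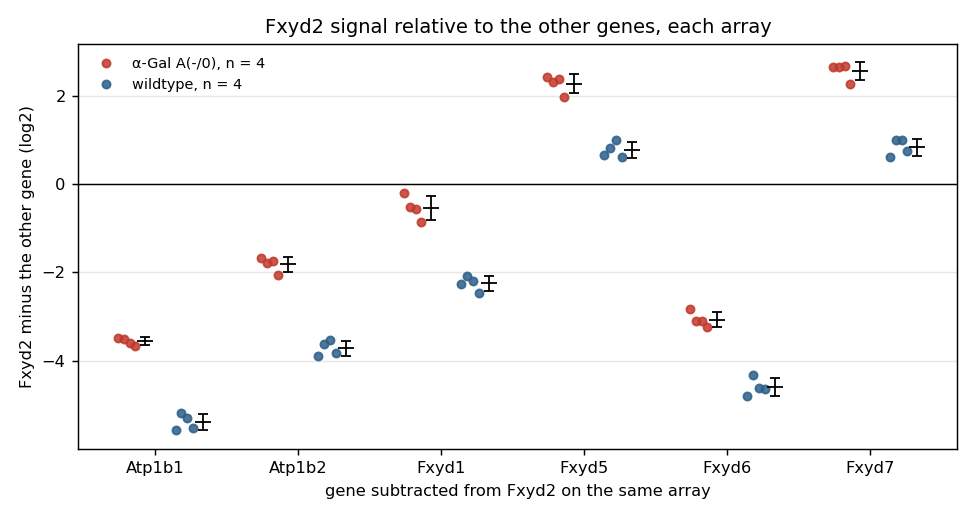
Log2 signal of Fxyd2 minus that of each of the other 6 genes (x axis) on the same array (y axis, log2), α-Gal A(-/0) in red and wildtype in blue (points, 4 arrays each), with the mean and SD as black bars. For every gene the α-Gal A(-/0) arrays lay above the wildtype arrays, with changes from 1.502 (Fxyd5) to 1.91 (Atp1b2).

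Of 5 further pump and FXYD genes on the array, 2 were tested and 0 were called by limma, nor did either pass at an unadjusted p under 0.05. Atp1b3, a further beta subunit, had a log2 fold change of -0.084 (limma adjusted p = 0.68). Fxyd3 was dim, with log2 signals of 4.83, 6.35, 5.46 and 5.56 in α-Gal A(-/0) replicates 1 to 4 and 5.37, 5.01, 5.19 and 5.32 in wildtype replicates 1 to 4, and did not pass (adjusted p = 0.68). Atp1a4, known from testis, Atp1b4, known from muscle, and Fxyd4, known from kidney and colon, were well above background on 0 of the 8 arrays. So were Atp4a and Atp4b of the related gastric proton pump, while Atp12a, its counterpart outside the stomach, was above background on 2 α-Gal A(-/0) arrays and 1 wildtype array and was not tested.

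Genes that work beside the pump showed no member past the test either. Of the 4 Nkain genes, whose proteins bind a pump beta subunit, 0 were called by limma and 1 had an unadjusted p under 0.05. A dim probe of Nkain2 had a log2 fold change of 0.41 (limma adjusted p = 0.090), but its other 3 probes had 0.12, 0.095 and 0.008. The brighter Nkain1 probe had 0.11 (limma adjusted p = 0.56). Of 15 transporters and exchangers driven by the sodium gradient, 0 were called and 1 had an unadjusted p under 0.05, with a median log2 fold change of -0.071 where the median of all tested genes was -0.022. Among them the 2 probes of the sodium bicarbonate cotransporter Slc4a7 went apart, at 0.41 (limma adjusted p = 0.29) and -0.15 (adjusted p = 0.49), and the lowest p of the sodium calcium exchanger Slc8a1 belonged to a dim probe with 0.32 (adjusted p = 0.51). Of 8 voltage-gated sodium channel genes 0 were called, also at an unadjusted p under 0.05, with a median of -0.066, among them Scn8a at -0.23 in its dimmest probe (adjusted p = 0.42) and at 0.14 in its brightest, and Scn1a at -0.27 (adjusted p = 0.48). Of all tested probes, 0.882% passed in either direction.

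On chromosome 7, Fxyd1, Fxyd7 and Fxyd5 lie within 18.9 kb of each other. Within 500 kb, limma called 0 of the 32 tested genes around Fxyd1, 0 of 11 around Atp1b1 and 0 of 69 around Atp1b2, with 6, 0 and 14 genes at an unadjusted p under 0.05. Around Fxyd2, 17 other genes were tested within 500 kb, of which 0 rose, 1 fell and 10 had an unadjusted p under 0.05. Of all tested genes, 1.13% passed in either direction and 15.4% had an unadjusted p under 0.05 in at least 1 probe. The gene that fell, Tmprss4, encodes a transmembrane serine protease and was dim: its log2 signals were 5.02, 5.16, 4.16 and 4.67 in α-Gal A(-/0) replicates 1 to 4, with 3 of these 4 arrays above background, and 6.00, 5.99, 6.22 and 5.98 in wildtype replicates 1 to 4. The genotypes did not overlap, and the log2 fold change was -1.29 (standard error 0.20, limma adjusted p = 0.029), a call that was lost without α-Gal A(-/0) replicate 1 or 4 or any 1 of the wildtype replicates 1 to 4. Over the 16 alternatives in which Tmprss4 was tested it was called in 6, with log2 fold changes from -1.41 to -0.55, the last with normexp background correction.

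The other genes within 500 kb did not pass. Those with the lowest p were Cep164, a protein of the centriole, at -0.48 in the dimmest of its 3 probes (limma adjusted p = 0.091, the others at -0.18 and 0.051), Amica1, an adhesion molecule of leukocytes, at 0.61 (adjusted p = 0.14), Mpzl3 at -0.48 (adjusted p = 0.17), one of the 2 Rnf214 probes at -0.24 (adjusted p = 0.18) and Mpzl2 at 0.64 (adjusted p = 0.27). Fxyd6 was the sixth in that order. The sodium channel beta subunits Scn4b and Scn2b, 256 and 280 kb away, had -0.10 and -0.055 (limma adjusted p = 0.89 and 0.72). Within 1 Mb, 38 genes were tested, of which Ift46 rose by 0.41 on the log2 scale (adjusted p = 0.011) and Tmem25 (-1.64, adjusted p = 4.2e-05), Bcl9l (-0.78, adjusted p = 0.026) and Tmprss4 fell. Those 4 genes are 10.5% of the 38, against the 1.13% of all tested genes. Ift46, Tmem25 and Bcl9l lie outside the 500 kb and were named after their values were seen.

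**Figure D4:**
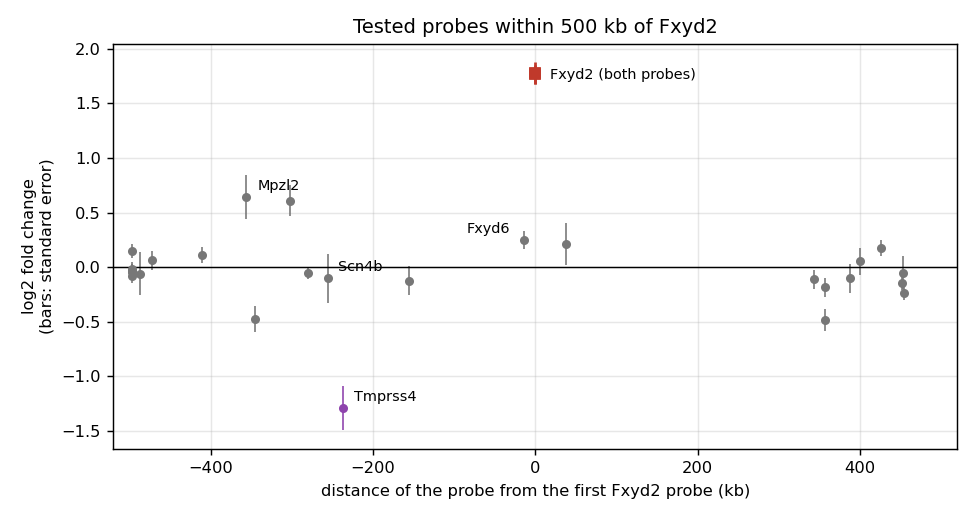
Log2 fold change (y axis, bars are standard errors) of every tested probe within 500 kb of Fxyd2 against its distance from the first Fxyd2 probe (x axis, kb), with Fxyd2 as red squares, Tmprss4 in purple and all other probes in grey. Fxyd2 stood at 1.77 and 1.78, Tmprss4 at -1.29, and the other probes between -0.48 and 0.64.

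Of the other tested genes, those whose signals over the 8 arrays were most like Fxyd2's, by the root mean square difference of log2 signals centred on their mean, were also higher in all 4 α-Gal A(-/0) arrays. The second Fxyd2 probe differed by 0.037. The nearest other features were unnamed transcripts on chromosomes 12 and 10 (0.093 and 0.17), the histocompatibility gene Gm8909 (0.18), Gm4924 (0.21) and Fn3krp, whose product frees proteins from attached sugars (0.22). The Gm4924 probe lies inside the interval of the unnamed chromosome 10 transcript on the same strand, so these features may not be separate. All of these likenesses rest on 8 arrays that share the genotype difference. Of all tested probes, 34 had a log2 fold change at least as high as that of the first Fxyd2 probe.

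Markers of the cell types and neighbouring tissues that the dissected piece could hold were read on the same arrays. All 9 astrocyte markers were lower and 0 passed the test, Gjb6 (-0.18, limma adjusted p = 0.27) and a dim probe of Gfap (-0.49, adjusted p = 0.27) being nearest to it, while 6 of the 9 had an unadjusted p under 0.05. Their median log2 fold change was -0.15, and the log2 of their summed signal was 17.67 to 17.68 in α-Gal A(-/0) and 17.72 to 17.82 in wildtype arrays. These values stand beside that of Atp1b2, and their part in it was not tested. Of the 10 neuronal markers 8 were lower and 0 passed (summed log2 signal 17.79 to 17.86 against 17.93 to 18.04), Snap25 having -0.32 (adjusted p = 0.15) and 2 genes an unadjusted p under 0.05. Of the 8 oligodendrocyte markers 7 were higher and 0 passed (17.06 to 17.13 against 17.01 to 17.20), with 3 at an unadjusted p under 0.05.

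All 5 microglial markers read were lower, 4 of the 5 had an unadjusted p under 0.05, and Csf1r (-0.44, limma adjusted p = 0.012) fell, with a summed log2 signal of 14.68 to 14.76 against 15.04 to 15.23. The other 2 probes of Csf1r had -0.37 (adjusted p = 0.062) and 0.59 (adjusted p = 0.65), the last with a signal of 12.12 in α-Gal A(-/0) replicate 2. None of the 7 endothelial and mural markers (13.81 to 13.97 against 13.88 to 14.14), the 5 meningeal ones (12.09 to 12.39 against 12.22 to 12.48) or the 4 of blood (15.36 to 15.59 against 14.85 to 15.92) passed in limma, with 2, 0 and 0 of them at an unadjusted p under 0.05. Of the choroid plexus list, the probe of its defining marker Ttr was above background on 0 arrays and 0 of the other 5 genes passed (10.10 to 10.86 against 10.10 to 10.49), 2 of them having an unadjusted p under 0.05. Of the olfactory bulb list Cdhr1 rose (1.73, adjusted p = 0.025). The other 4 genes did not pass, with log2 fold changes from 0.024 (Th) to 0.12 (Eomes). The summed log2 signal of all 5, Cdhr1 included, was 12.04 to 13.01 against 11.16 to 12.50. The 4 genes other than Cdhr1 varied widely within a genotype, most of all Eomes. Each was higher in α-Gal A(-/0) replicates 3 and 4 and wildtype replicates 1 and 4 than in the other arrays of its genotype. Eomes read 4.25, 5.73, 8.00 and 7.43 in α-Gal A(-/0) replicates 1 to 4. It read 7.64, 5.25, 5.12 and 6.91 in wildtype replicates 1 to 4.

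The striatal list, like that of the olfactory bulb, varied widely between arrays of one genotype. All 6 tested striatal genes were higher and 0 passed (1 at an unadjusted p under 0.05). The summed log2 signal of the striatal list was 15.87 to 17.25 in α-Gal A(-/0) and 15.52 to 16.72 in wildtype arrays. Its lowest values were those of α-Gal A(-/0) replicate 4 and wildtype replicate 1, which were also the arrays with the lowest Scn4b of their genotype, at 12.91 and 13.25. Against these sums, the first Fxyd2 probe read 12.74, 12.56, 12.61 and 12.45 in α-Gal A(-/0) replicates 1 to 4, whose striatal sums were 17.16, 17.25, 16.97 and 15.87. It read 10.72, 10.92, 10.94 and 10.71 in wildtype replicates 1 to 4, whose striatal sums were 15.52, 16.72, 16.22 and 16.34. Within the α-Gal A(-/0) arrays the lowest sum went with the lowest Fxyd2, but the highest sum, in replicate 2, did not go with the highest Fxyd2. Among the wildtype arrays the lowest sum went with the second lowest Fxyd2, and the lowest Fxyd2 was that of replicate 4, with a sum of 16.34. In α-Gal A(-/0) replicate 4 the sum was lower than in wildtype replicates 2 to 4, and Fxyd2 was higher. The part of the striatal signal in the Fxyd2 difference was not tested.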

How the data were processed

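Total RNA of PFC was labelled with Cyanine-3 and hybridized to one-color arrays, 1 per mouse. Per the file headers, the deposited intensity values were made with Feature Extraction 10.7.3.1 (also in the submitters' processing notes), with detrending within the array, without subtraction of local background and without normalization between arrays. The authors' series table of log2 values, quantile normalized in GeneSpring, was not used because its columns do not follow their sample names. Positions are given on mm9, the build of the array design.

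Intensities were taken to log2, spots of a probe averaged, and all probes other than controls quantile normalized. Probes marked as non-uniform on 1 or more arrays were removed. The test, limma 3.58.1 (lmFit, eBayes; R 4.3.3, statmod 1.5.0), took probes that Feature Extraction marked well above background on every array of one genotype or the other. It was two-sided, with Benjamini-Hochberg adjustment and a threshold of 0.05. Within-array differences were compared by exact permutation with scipy 1.17.1 (Python 3.11.15, pandas 2.3.3, numpy 2.4.6), and figures were drawn with matplotlib 3.10.9. The steps were tested on simulated data, where 0 of 50 differences of 1.2-fold, 27 of 50 of 1.5-fold and 35 of 50 of 2-fold passed. A gene that did not pass may therefore still differ by a small step, and a difference of 2-fold can be missed too.

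The genes and all lists were chosen with earlier results of these data known. Named are the 7 genes, the other pump and FXYD genes with a probe and every called gene of the other pathway and marker lists. Where none was called, the 2 with the lowest p are named in a tested pathway list, and up to 2 in a marker list. Also named are called genes within 500 kb of Fxyd2 and otherwise up to 6 with the lowest p, and the 5 genes most like Fxyd2. A few further genes are named where a sentence describes them, such as Slc17a7, Scn4b, Ttr, Eomes and Th. A gene with several probes is represented by its brightest tested probe in counts of directions, medians and sums, and called if any probe passed. Some genes of the lists are not reported here and were left out of the counts, medians and sums of their lists.

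Alternatives were scaling to the 75th percentile, background correction by normexp (offset 50), other filters on dim or saturated probes, the methods' Welch test, an intensity trend with robust variances, blocks for replicate number and slide row, each array left out in turn, the mean of both Fxyd2 probes and a distance of 1 Mb. Arrays with the same replicate number were not treated as pairs, since their residuals correlated by -0.089, 0.14, 0.014 and 0.15.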

Additional observations from a re-analysis of the deposited data

How the results depend on the processing

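The call of Fxyd2 kept its direction and its side of the threshold in all 17 alternatives, with log2 fold changes of 1.71 to 1.85 in the first probe and 1.71 to 1.89 in the second and adjusted p values of at most 0.0055 and 0.0066. With the replicate block the log2 fold change of the first probe was 1.77 with an adjusted p of 0.0055, and this block changed no call among the 7 genes. The number of called genes among the 7 was 1 higher and 0 lower, and that of the other pump and sodium transport genes reported here 0, in all 17 alternatives. Of the genes that did not pass, the sign of Fxyd1 turned to -0.042 with slide row as a block, and leaving out 1 array gave Fxyd1 -0.0049 to 0.12 and Fxyd7 -0.015 to 0.079. The 6 differences between Fxyd2 and another gene ranged from 1.44 (Fxyd6) to 1.99 (Atp1b2) over their 12 alternatives, with an exact p of 0.125 at best for the replicate block, by sign flips within numbers, and of 0.057 at best with 1 array left out, so neither could pass 0.05. Genes within 500 kb of Fxyd2 that fell numbered 0 without a filter on signal, with a filter on all 8 arrays, with the methods' Welch test and with the replicate block or slide row as a block, 2 (Tmprss4 and Cep164) with an intensity trend and robust variances, and 0 to 1 with 1 array left out, while 0 rose. Within 1 Mb instead 1 rose and 3 fell. Over all probes, 303 were called by limma, 402 with normexp, 439 with an intensity trend and robust variances, 89 by the methods' Welch test, 157 with the replicate block, 150 with slide row as a block and 189 to 268 with 1 array left out. Dim probes such as those of Tmprss4 and Fxyd3 lie near the background, which limits what can be said of them.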
